A study of Homo sapiens with 8 samples.

Results

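The mRNAs of 10 genes that place, remove or read N6-methyladenosine (m6A) were followed in human colorectal cancer (CRC) cells after knockdown of NAT10. They are the writers METTL3, METTL14 and WTAP, the erasers ALKBH5 and FTO, and the readers YTHDF1, YTHDF2, YTHDF3, IGF2BP2 and IGF2BP3. They were listed by name and make up 10 of the 17309 genes in the count table. All 10 of 10 passed the filter on low counts and stood among the 13619 genes tested.

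m6A is the most abundant internal mark of mRNA and is set on adenosines by a nuclear complex in which METTL3 is the catalytic subunit, METTL14 binds the substrate RNA and WTAP anchors the complex. FTO and ALKBH5 take the methyl group off. YTH domain proteins bind the marked base, and the insulin-like growth factor 2 mRNA-binding proteins (IGF2BP) keep bound transcripts stable, whereas NAT10 writes a different mark, N4-acetylcytidine (ac4C), on cytidines.

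SW480 and DLD-1 are established CRC cell lines, labelled WT throughout. Cells of each line were infected with lentivirus carrying a control short hairpin RNA (shControl) or a hairpin against NAT10 (shNAT10), so that every group, controls included, carried a hairpin. Each of the 4 groups (SW480 shControl, SW480 shNAT10, DLD-1 shControl and DLD-1 shNAT10) had 2 libraries of poly(A)-selected RNA, named as biological replicates in the labels, and 15147805 to 17271336 counts were assigned per library. Whether replicates came from separate infections is not said, and the p-values below measure the spread between such libraries. The comparison asked whether the m6A machinery shifted at the mRNA level when NAT10 was reduced, and how it differed between the lines.

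The sequences that set the experiment apart are the NAT10 hairpin targets, shown here because the labels do not say which of them was sequenced. Both lie in the coding region of NAT10 (Entrez 55226, plus strand of chromosome 11) and each spans an exon junction, with the bases of the downstream exon in capitals. The first covers exons 8 and 9 of 29 (chr11:34118503-34122476, GRCh38, the intron included) and the second exons 26 and 27 (chr11:34141805-34142280).
shNAT10-1 target: gGCCAAAGCTGTCTTGAAA
shNAT10-2 target: cagtgacgacctaGATGAA
The longest run of bases that a member's transcripts shared with the 19-base target of shNAT10-1 was 10 in IGF2BP3, which 6.36% of 13059 genes matched or exceeded, 9 in METTL3 (21.0% of genes) and 8 in each of the other 8 members (59.0%). For shNAT10-2 the longest runs were 7 or 8 bases.

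NAT10 was examined first as a check of the labels. Its level in CPM (counts scaled by library size and TMM factor) was 122 and 122 (shControl) and 23.6 and 27.9 (shNAT10) in SW480, and 121 and 121 (shControl) and 59.0 and 54.4 (shNAT10) in DLD-1. NAT10 was lower in every shNAT10 library than in every shControl library, and it fell further in SW480 than in DLD-1 (difference of log2 fold changes −1.16 ± 0.118 SE, adjusted p = 0.0015, edgeR). This difference lost significance without DLD-1 shNAT10 replicate 1 (−1.10, adjusted p = 0.073). The epithelial marker EPCAM stood at 131 to 141 CPM in SW480 and 601 to 656 CPM in DLD-1. The mesenchymal gene VIM stood at 500 to 574 CPM in SW480 and 0.0656 to 0.296 CPM in DLD-1. Of 9 tested epithelial markers, 7 were lower and 2 higher in SW480 shControl than in DLD-1 shControl (adjusted p under 0.05, edgeR). The 2 higher were VIL1 and LGALS4. VIL1 stood at 13.1 to 15.8 CPM in SW480 and 4.20 to 6.83 CPM in DLD-1. LGALS4 stood at 1.87 to 2.57 CPM in SW480 and 0.651 to 1.35 CPM in DLD-1. The 2 SW480 shNAT10 libraries differed from each other more than the replicates of the other groups did, with a chi-square per degree of freedom of 9.47 against 3.19 to 4.37.

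No m6A gene passed an adjusted p of 0.05 after NAT10 knockdown in either line (0 of 10 members by edgeR's quasi-likelihood test, and 0 of 10 by DESeq2 and by limma on FPKM). Over all 13619 genes, edgeR called 1.68% in SW480 and 0.0147% in DLD-1, and DESeq2 called 2.23% and 0.11%. Limma on FPKM called few genes at all, 0.272% to 0.36% in SW480 and 0.00734% to 0.022% in DLD-1. At an unadjusted p under 0.05, 3 of 10 members were listed in SW480, where 19.3% of all genes were, and 1 of 10 in DLD-1, where 5.96% were. None met the limits used by the study (fold change above 1.2 or below 0.83 with unadjusted p under 0.05), which 9.08% of all genes met in SW480 and 2.68% in DLD-1. The median log2 fold change of the members was −0.06 in SW480 and 0.02 in DLD-1, beside −0.01 and 0 over all genes tested, and the extremes were −0.25 and 0.17. With 2 libraries a group, the 95% intervals of single members still reached down to −0.46 and up to 0.30 in SW480, and down to −0.34 and up to 0.31 in DLD-1.

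**Figure D1:**
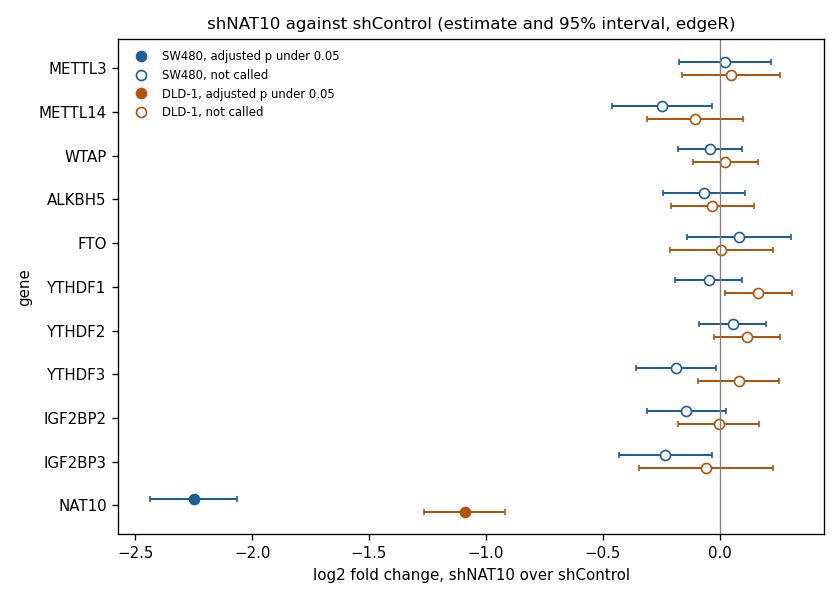
Log2 fold change of shNAT10 over shControl (x axis) for the 10 m6A genes and NAT10 (y axis) in SW480 and DLD-1, with 95% intervals from edgeR. Filled points passed an adjusted p of 0.05. Only the NAT10 points, at −2.25 and −1.09, are filled, and the members lie between −0.25 and 0.17.

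Among the writers, METTL3 (Entrez 56339, chr14:21498138-21511340, RefSeq GRCh38.p14) showed no separation after knockdown. It was at 47.1 and 40.3 CPM (shControl) and 43.2 and 45.6 (shNAT10) in SW480, and 30.4 and 32.0 (shControl) and 30.1 and 34.6 (shNAT10) in DLD-1. The shNAT10 libraries lay inside or across the shControl range in both lines. Its log2 fold change was 0.02 (95% interval −0.18 to 0.22, adjusted p = 0.92, edgeR) in SW480 and 0.05 (−0.16 to 0.26, adjusted p = 0.99) in DLD-1. The METTL3 total lay more than 0.05 counts from a whole number in 8 of 8 libraries. Totals do so where RSEM divides a read between genes. How many METTL3 reads were divided is not shown, so the size of this uncertainty in its level is not known.

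METTL14 (Entrez 57721, chr4:118685392-118715430), the partner of METTL3, had the most negative estimate of the 10 in both lines. In SW480 the shControl libraries gave 34.6 and 33.3 CPM and the shNAT10 libraries 26.3 and 30.9 CPM. In DLD-1 they gave 42.2 and 43.5 CPM with shControl and 36.6 and 43.2 CPM with shNAT10. The SW480 groups did not overlap, as for 47.9% of all genes, and the DLD-1 groups did. The log2 fold change was −0.25 ± 0.0994 SE in SW480 (unadjusted p = 0.027, adjusted p = 0.20, edgeR) and −0.10 ± 0.0953 in DLD-1 (adjusted p = 0.93). Without SW480 shNAT10 replicate 2, METTL14 was called in SW480 (−0.37, adjusted p = 0.032) and over both lines (−0.24, adjusted p = 0.044), in fits that called 15.6% and 8.37% of all genes. Without SW480 shNAT10 replicate 1 the values were −0.13 (adjusted p = 0.76) and −0.11 (adjusted p = 0.58), and without DLD-1 shNAT10 replicate 1 the value over both lines was −0.12 (adjusted p = 0.70). The adjusted p of METTL14 in SW480 ranged from 0.032 to 0.76 over 17 alternatives.

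WTAP (Entrez 9589, chr6:159726693-159756319), the adaptor of the complex, varied little. It was at 124 and 128 CPM (shControl) and 121 and 124 (shNAT10) in SW480, and 113 and 109 (shControl) and 114 and 111 (shNAT10) in DLD-1. Its log2 fold change was −0.04 (95% interval −0.18 to 0.10, adjusted p = 0.78, edgeR) in SW480 and 0.03 (−0.11 to 0.16, adjusted p of 1) in DLD-1. The SW480 groups were separated by less than the distance between their own replicates.

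The shControl and shNAT10 groups did not separate for either eraser, though single shNAT10 libraries lay outside the shControl range. ALKBH5 (Entrez 54890, chr17:18183828-18209954), a nuclear demethylase, was at 64.4 and 66.2 CPM (shControl) and 66.0 and 58.7 (shNAT10) in SW480, and 59.3 and 56.1 (shControl) and 59.2 and 53.7 (shNAT10) in DLD-1. FTO (Entrez 79068, chr16:53703963-54121941), which also demethylates the adenosine beside the mRNA cap, was at 24.9 and 23.7 CPM (shControl) and 23.1 and 28.4 (shNAT10) in SW480, and 27.4 and 25.7 (shControl) and 26.7 and 26.7 (shNAT10) in DLD-1. The groups overlapped for both genes in both lines. The adjusted p of ALKBH5 and FTO was 0.70 for each in SW480 and 1 for each in DLD-1 (edgeR), with log2 fold changes of −0.06 and 0.08 in SW480 and −0.03 and 0.01 in DLD-1. On FPKM the sign for FTO turned in both lines. It was −0.18 in SW480, where shNAT10 replicate 2 has no FPKM for FTO, and −0.072 in DLD-1, where every library has one. Neither value was called.

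The 3 YTHDF readers are close paralogs of the cytoplasm, of which YTHDF2 brings bound mRNA to the deadenylase complex. YTHDF1 (Entrez 54915, chr20:63195429-63216131) was at 102 and 106 CPM (shControl) and 99.8 and 101 (shNAT10) in SW480, and 92.1 and 96.5 (shControl) and 104 and 108 (shNAT10) in DLD-1. YTHDF2 (Entrez 51441, chr1:28736624-28769775) was at 98.5 and 100.3 CPM (shControl) and 100.5 and 106 (shNAT10) in SW480, and 118 and 123 (shControl) and 133 and 129 (shNAT10) in DLD-1. In DLD-1, both shNAT10 libraries lay above both shControl libraries for these 2 genes and for no other member, against 36.0% of all genes whose DLD-1 groups did not overlap in either direction. YTHDF1 gave a log2 fold change of 0.17 in DLD-1 (95% interval 0.02 to 0.31, unadjusted p = 0.027, adjusted p = 0.82, edgeR) and −0.05 in SW480 (adjusted p = 0.75). YTHDF2 gave 0.12 in DLD-1 (adjusted p = 0.89) and 0.06 in SW480 (adjusted p = 0.68).

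YTHDF3 (Entrez 253943) gave 110.1 and 119 CPM with shControl and 95.5 and 106 CPM with shNAT10 in SW480. In DLD-1 it was at 98.7 and 110.1 CPM in shControl and 107 and 114 CPM in shNAT10. The groups did not overlap in SW480, as for 47.9% of all genes, and overlapped in DLD-1, with estimates on either side of 0. The log2 fold change was −0.19 ± 0.08 SE in SW480 (unadjusted p = 0.036, adjusted p = 0.23, edgeR) and 0.08 ± 0.0801 in DLD-1 (adjusted p = 0.94). Without SW480 shNAT10 replicate 2 the SW480 value was −0.26 with an adjusted p of 0.04998. It was −0.10 (adjusted p = 0.76) without SW480 shNAT10 replicate 1, and over 17 alternatives the adjusted p of YTHDF3 ranged from 0.040 to 0.76.

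The IGF2BP readers were lower in SW480 shNAT10 libraries without passing the test. IGF2BP2 (Entrez 10644, chr3:185643130-185825042) was at 87.6 and 88.6 CPM (shControl) and 76.0 and 83.6 (shNAT10) in SW480, and 60.4 and 64.2 (shControl) and 65.5 and 58.6 (shNAT10) in DLD-1. IGF2BP3 (Entrez 10643, chr7:23310209-23470491), a fetal protein that returns in many carcinomas, was at 71.4 and 69.3 CPM (shControl) and 57.0 and 62.8 (shNAT10) in SW480, and 9.81 and 12.8 (shControl) and 10.2 and 11.6 (shNAT10) in DLD-1. For both genes the SW480 groups did not overlap, as for 47.9% of all genes, and the DLD-1 groups did. IGF2BP3 gave −0.23 ± 0.0925 SE in SW480 (unadjusted p = 0.025, adjusted p = 0.20, edgeR) and −0.06 ± 0.134 in DLD-1 (adjusted p of 1). It was called in SW480 in 1 of 17 alternatives, over which its adjusted p ranged from 0.037 to 0.67, and its estimate ran from −0.30 without SW480 shNAT10 replicate 2 to −0.15 without replicate 1 of the same group. IGF2BP2 gave −0.14 ± 0.079 in SW480 (adjusted p = 0.34) and −0.00 ± 0.0815 in DLD-1 (adjusted p of 1). The SW480 value of IGF2BP2 was −0.21 (adjusted p = 0.10) without SW480 shNAT10 replicate 2 and −0.066 (adjusted p = 0.85) without replicate 1. The IGF2BP3 total, like that of METTL3, lay more than 0.05 counts from a whole number, here in 6 of 8 libraries.

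**Figure D2:**
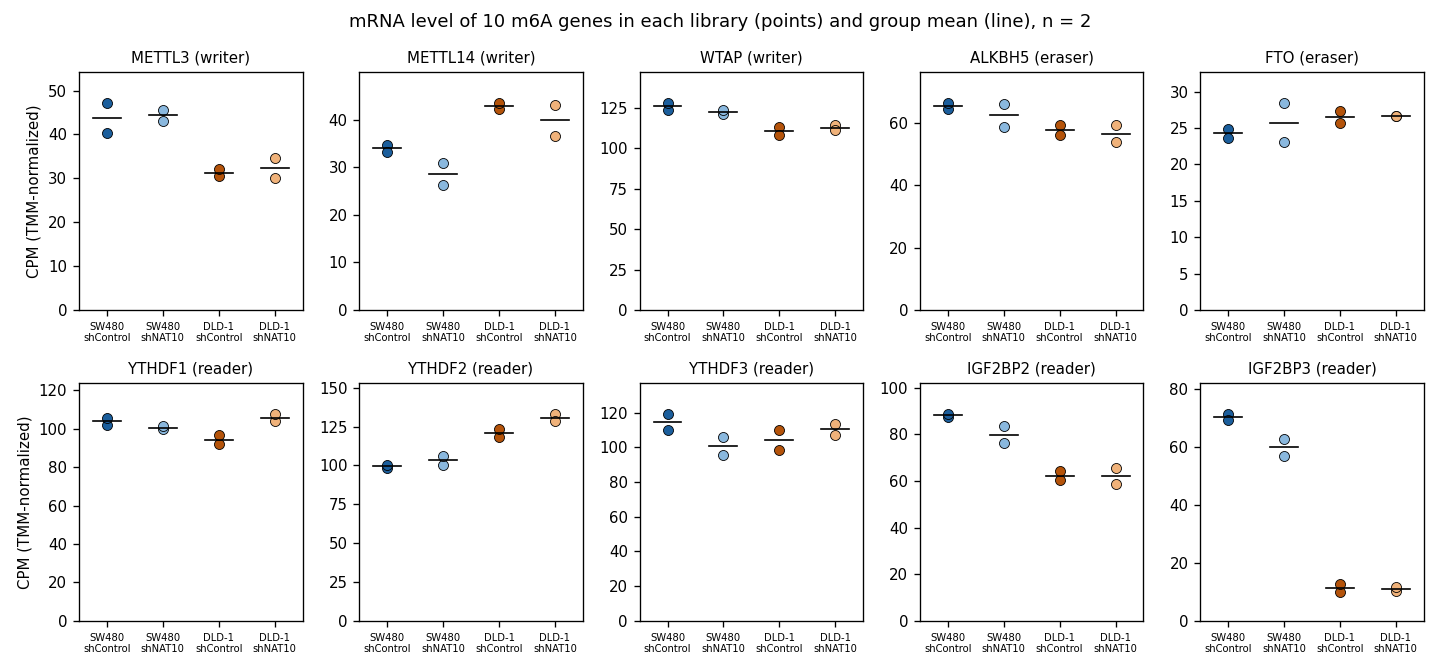
TMM-normalized CPM (y axis, from 0) of each m6A gene in the 4 groups (x axis), with points for the 2 libraries and a line for their mean. Knockdown and control points sit close together within each line, while IGF2BP3 stands near 11 CPM in DLD-1 and between 57.0 and 71.4 CPM in SW480.

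In SW480, 7 of 10 members had groups that did not overlap, 6 lower and 1 higher in shNAT10, where 47.9% of all genes had such groups. Over both lines together 0 of 10 members were called by edgeR and 0 by DESeq2 (1.02% and 1.56% of all genes). By edgeR, 1 of 10 had an unadjusted p under 0.05 (14.5% of all genes). That member was METTL14, with a mean log2 fold change of −0.18 ± 0.0689 SE (unadjusted p = 0.023, adjusted p = 0.26). The knockdown effect differed between the lines for 0 of 10 members by edgeR and by DESeq2 (0.00734% and 0.147% of all genes). By edgeR, 2 of 10 had an unadjusted p under 0.05 (9.38% of all genes). These were YTHDF3 (SW480 minus DLD-1 −0.27, adjusted p = 0.50) and YTHDF1 (−0.21, adjusted p = 0.52).

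Between the lines themselves, some m6A genes differed, though a smaller share of them than of all genes tested. In shControl cells 6 of 10 members were called between SW480 and DLD-1, 4 higher and 2 lower in SW480, and in shNAT10 cells, whose libraries are separate, 5 of 10 were called, 3 higher and 2 lower. These shares lie below those of all genes, of which 73.8% were called in shControl and 74.5% in shNAT10. The groups did not overlap for 9 of 10 members in shControl and 8 of 10 in shNAT10, beside 87.7% and 85.1% of all genes. The median absolute log2 difference of the members was 0.23 in shControl and 0.24 in shNAT10, beside 0.54 and 0.56 over all genes tested.

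The difference of IGF2BP3 was the widest of the 10. It was 6.21-fold higher in SW480 in shControl cells (log2 2.63, 95% interval 2.40 to 2.87, adjusted p = 2.3e-11, edgeR) and 5.50-fold higher in shNAT10 cells (log2 2.46, adjusted p = 6.5e-11). IGF2BP2 was 1.41-fold higher in SW480 shControl (log2 0.50, adjusted p = 5.3e-05) and 1.29-fold in shNAT10 (log2 0.36, adjusted p = 0.00092), the latter not called on FPKM (log2 0.25, adjusted p = 0.059). Every SW480 library was above every DLD-1 library for both genes. The third family member, IGF2BP1, had 1196, 1246, 1133 and 1135 counts in the SW480 libraries and 2, 6, 3 and 2 counts in the DLD-1 libraries, and was called in both hairpin settings (adjusted p = 2.0e-14 in shControl and 2.5e-14 in shNAT10).

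The core writers METTL3 and METTL14 differed between the lines in opposite directions. METTL3 was 1.40-fold higher in SW480 in shControl cells (log2 0.48 ± 0.0951 SE, adjusted p = 0.00033, edgeR) and 1.37-fold higher in shNAT10 cells (log2 0.46, adjusted p = 0.00053). METTL14 was lower in SW480 in both settings (log2 −0.33, adjusted p = 0.0059 in shControl; −0.48, adjusted p = 0.00052 in shNAT10), although on FPKM the shControl difference was not called (log2 −0.23, adjusted p = 0.067). The ratio of METTL3 to METTL14 FPKM, chosen after their values were seen and not tested, was 2.21 and 2.03 in SW480 shControl and 2.62 in SW480 shNAT10 replicate 1. It was 1.23 and 1.28 in DLD-1 shControl and 1.50 and 1.39 in DLD-1 shNAT10. WTAP was higher in SW480 shControl by 0.19 ± 0.0643 SE on the log2 scale (adjusted p = 0.018) and by 0.12 in shNAT10 (adjusted p = 0.10), and its shControl call was lost without SW480 shControl replicate 2 (0.16, adjusted p = 0.12) or DLD-1 shControl replicate 2 (0.16, adjusted p = 0.12).

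YTHDF2 was lower in SW480 than in DLD-1 in both settings (log2 −0.28, adjusted p = 0.0016 in shControl and −0.34, adjusted p = 0.00033 in shNAT10, edgeR). YTHDF1 gave log2 0.14 in shControl (adjusted p = 0.074) and −0.07 in shNAT10 (adjusted p = 0.34). YTHDF3 gave 0.13 (adjusted p = 0.14) and −0.13 (adjusted p = 0.15). The erasers were not called in either setting, with ALKBH5 at 0.18 (adjusted p = 0.064) and 0.14 (adjusted p = 0.13) and FTO at −0.13 (adjusted p = 0.27) and −0.05 (adjusted p = 0.66). Both ALKBH5 and YTHDF1 in shControl changed sides of the threshold with the settings, being called in 7 and 6 of 16 alternatives, among them those without SW480 shNAT10 replicate 1 (adjusted p = 0.032 and 0.047) and, for ALKBH5, without SW480 shNAT10 replicate 2 (0.032). In shNAT10 cells, ALKBH5 was called in 1 of 16 alternatives, the one without SW480 shNAT10 replicate 2 (0.22). YTHDF3 was called there in 4 of 16. These were the fit without SW480 shNAT10 replicate 2 (−0.21), both FPKM fits (−0.24 and −0.25) and the replicate block (−0.13). FTO was called on FPKM in both settings (−0.20 and −0.31).

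**Figure D3:**
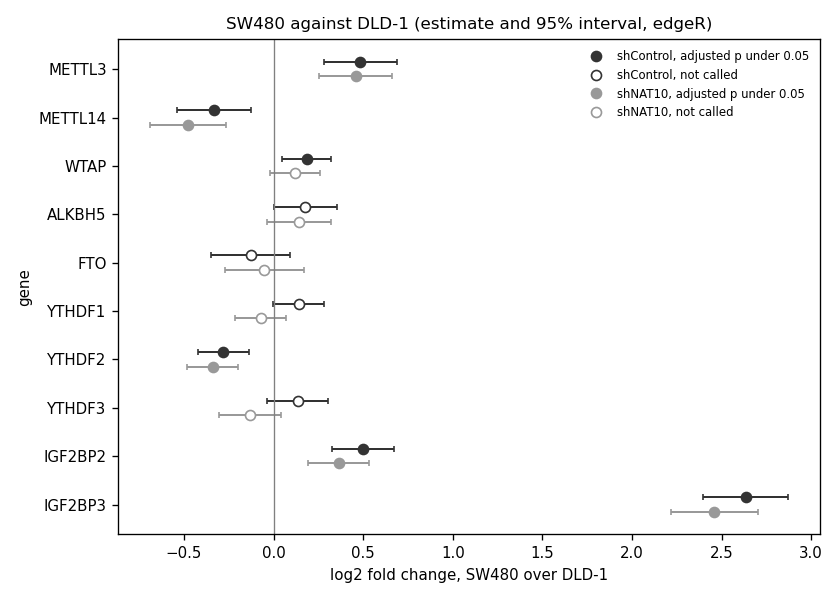
Log2 fold change of SW480 over DLD-1 (x axis) for the 10 m6A genes (y axis) in shControl and in shNAT10 cells, with 95% intervals from edgeR and filled points for an adjusted p under 0.05. IGF2BP3 lies at 2.63 and 2.46, and the other 9 members lie between −0.48 and 0.50.

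The start of IGF2BP3 is shown because it separated the lines most. The RefSeq promoter window (GRCh38.p14, minus strand, 250 bases before the start) holds 2 copies of the E-box CACGTG, a palindrome that reads the same on both strands and does not overlap the other motifs searched, with first bases 174 and 146 bases before the start. They are printed with 10 bases on either side and the E-box in capitals, at chr7:23470650-23470675 and chr7:23470622-23470647.
IGF2BP3 distal: tgggattcctCACGTGagacgttgat
IGF2BP3 proximal: gtagtttgaaCACGTGgctcattcaa
Of 35116 promoter windows of the same kind, 7.26% hold this E-box at least once. Windows were found for 9 of 10 members, and among the others only YTHDF1 holds an E-box, with 1 copy. The main IGF2BP2 window (chr3:185824993-185825292) holds 7 GC boxes (GGGCGG or its complement CCGCCC), a motif present in 45% of windows, and no E-box. These matches describe letters and were not linked to the expression data.

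Levels were compared between genes per length, as gene FPKM. WTAP was highest with a median of 70.0 over 7 libraries (66.0 to 82.9), followed by YTHDF2 at 45.3 over 8 libraries (40.0 to 54.1) and YTHDF1 at 36.1 over 7 (32.4 to 38.4), and the ranges of these 3 genes did not overlap. YTHDF3 (23.1), METTL3 (22.2), ALKBH5 (20.5) and IGF2BP2 (20.4) followed with ranges that overlapped from each to the next, so their order is not settled. METTL14 (12.6, 9.52 to 14.7) and FTO (7.87, 6.15 to 8.40) lay below without overlap. IGF2BP3 ranged from 3.26 to 4.40 FPKM in DLD-1, below FTO, and from 16.5 to 21.3 in SW480, above METTL14. The summed FPKM of YTHDF1, YTHDF2 and YTHDF3 lay at 94.3 to 104 in the 3 SW480 libraries with values and at 101 to 115 in the 4 DLD-1 libraries.

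**Figure D4:**
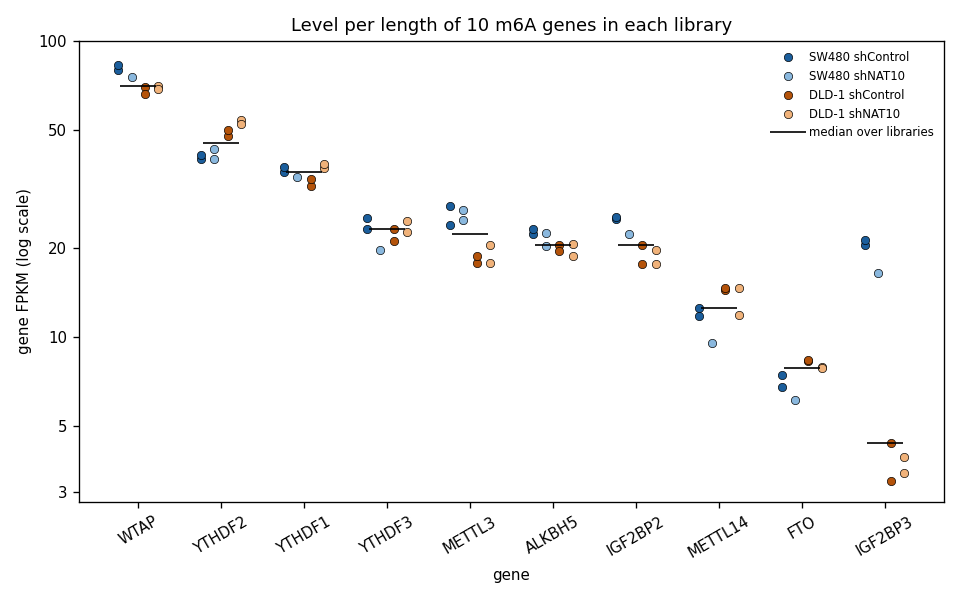
Gene FPKM (y axis, log scale) of the 10 m6A genes in order of their median (x axis), with 1 point for each library and a bar for the median over libraries. WTAP stands highest at a median of 70.0, and IGF2BP3 splits into DLD-1 points at 3.26 to 4.40 and SW480 points at 16.5 to 21.3.

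The makeup of transcripts was described without a test, since reads shared between transcripts had been divided by an estimate. Of 47 member transcripts holding at least 1% of their gene's counts on average, 6 had shares that did not overlap between the lines, close to the 13.9% of all 52866 such transcripts of tested genes. WTAP transcript NM_152858.2 took 23.1% to 35.0% of WTAP counts in SW480 and 3.57% to 12.3% in DLD-1, and NM_004906.5 took 25.9% to 33.2% and 34.1% to 54.2%. IGF2BP3 transcript NM_006547.3 took 52.7% to 67.3% in SW480 and 17.8% to 27.1% in DLD-1. METTL14 transcript XM_005263166.4 took 64.7% to 69.5% in SW480 and 48.6% to 58.8% in DLD-1. METTL3 was held almost wholly by NM_019852.5 (92.9% to 98.7%), YTHDF2 by NM_016258.3 (95.4% to 99.1%) and ALKBH5 by its only listed transcript, while FTO transcript NM_001363897.1 ranged from 25.2% to 58.0% with replicates as far apart as 58.0% and 34.9% in DLD-1 shNAT10.

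The rest of the m6A pathway was counted in the same way. Of 6 further m6A writer genes, 1 was called in SW480 and 0 in DLD-1 (edgeR), with 3 and 0 at an unadjusted p under 0.05 and a median log2 fold change of −0.15 and 0.05. Over all genes 1.68% and 0.0147% were called, and 19.3% and 5.96% had an unadjusted p under 0.05. Limma on FPKM called none of the 6 in either line, and at most 0.36% of all genes in SW480 and 0.022% in DLD-1. The 1 called was METTL16, which methylates U6 snRNA and the MAT2A mRNA and is not a subunit of the METTL3 complex. METTL16 gave 53.2 and 53.6 CPM with shControl and 39.9 and 44.5 CPM with shNAT10 in SW480, while it ranged from 51.9 to 55.2 CPM in DLD-1. The difference of its knockdown effect between the lines was −0.34 on the log2 scale and was not called (adjusted p = 0.47, edgeR). METTL16 fell in SW480 by 0.34 on the log2 scale (± 0.078 SE, adjusted p = 0.043, edgeR), with both shNAT10 libraries below both controls. That call held in 5 of 17 alternatives, with adjusted p from 0.0038 to 0.38, and was lost without either SW480 shControl library (adjusted p = 0.20 and 0.38), without SW480 shNAT10 replicate 1 (0.28) and without any of the DLD-1 libraries (0.075 to 0.088). Of 8 further readers and 3 decay partners of YTHDF2, 0 were called in either line by edgeR, DESeq2 or limma on FPKM. DESeq2 called 2.23% of all genes in SW480 and 0.11% in DLD-1. The readers had a median log2 fold change of −0.04 in SW480 and −0.05 in DLD-1. At an unadjusted p under 0.05 these were 0 readers in both lines, and 2 decay partners in SW480 and 1 in DLD-1.

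Between the lines, 4 of the 6 further m6A writer genes were called in shControl, as were 73.8% of all genes. The RNA-binding adaptor RBM15B was lower in SW480 (log2 −0.67, adjusted p = 6.3e-07, edgeR), and ZC3H13, which holds the complex in the nucleus, was higher (0.67, adjusted p = 6.9e-06). Both were called again in shNAT10 cells (−0.67 and 0.51). RBM15, the paralog of RBM15B, was higher in SW480 shControl (0.58, adjusted p = 0.0072), a call that was lost without DLD-1 shControl replicate 1 (0.27, adjusted p = 0.13) or SW480 shControl replicate 2 (0.45, adjusted p = 0.069). Among the 8 further readers 1 was higher and 4 were lower in SW480 shControl, with ELAVL1 at −0.54 and YTHDC2 at −0.37 on the log2 scale.

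Of all tested genes outside the members, the 3 whose levels followed METTL3 most closely over the 8 libraries were ADORA2B, OXNAD1 and TAPT1, with a root mean square difference of 0.0476, 0.0479 and 0.0529 in centred log2 CPM. All 3 were higher in every SW480 library than in every DLD-1 library, as METTL3 was. They were picked for following METTL3 over these same libraries, so this was largely set by the choice.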

How the data were processed

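Expression was measured by RNA-seq (single-end, poly(A)-selected, BGISEQ-500) in 8 libraries, which their labels assign to a line and a hairpin. The authors deposited estimated counts per RefSeq transcript, not normalized, and FPKM values per library made from the same alignments. The submitters' processing notes name HISAT2 2.0.4, Bowtie2 2.2.5, RSEM 1.2.12 and build hg38. The deposited FPKM values of SW480 shNAT10 replicate 2 stop early, which leaves 14655 transcripts (18.6%) without one, so 7 members have FPKM in 7 libraries.

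Transcript counts were summed per Entrez gene, rounded, filtered with filterByExpr (minimum count 10, minimum total 15), scaled by TMM and fitted as 4 groups in edgeR 4.0.16 (R 4.3.3) with two-sided quasi-likelihood tests, Benjamini-Hochberg adjustment over all 13619 genes and a biological coefficient of variation of 0.0585. Design choices had foreseen counts per gene. The standard error was taken as the size of the log2 fold change over the square root of F. Symbols matched 99.3% of identifiers. Alternatives were DESeq2 1.42.0, limma 3.58.1 (limma-trend) on log2(FPKM + 1) or log2(FPKM + 0.1), other scalings and filters, a replicate block, leaving out each library and fitting each line alone. When a library is left out, the remaining one is assumed to vary like those of the other groups. The fit was tested on simulated counts with known changes.

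Members, lists and comparisons were chosen with earlier results of these data known. The genes named were the members and NAT10 throughout and, from each further list, those called (at most 3 by size of change) or the one of lowest p, of which only those that a result turns on are printed. Likeness to METTL3 was the smallest root mean square difference of centred log2 CPM. Hairpin targets came from the study's oligonucleotide table and were placed on GENCODE transcripts of GRCh38, and promoter windows came from RefSeq. No sequence of YTHDF3 was used. Python 3.11.15 with pandas 2.3.3 and matplotlib 3.10.9 was used for tables and figures.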

Additional observations from a re-analysis of the deposited data

Results flagged for a closer look

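NAT10 was the single gene of those described whose knockdown effect differed between the lines by the interaction test. The log2 fold change was −2.25 in SW480 and −1.09 in DLD-1, a difference of −1.16 (95% interval −1.41 to −0.91, adjusted p = 0.0015, edgeR), and all 4 shNAT10 libraries were below all 4 shControl libraries. The difference was called in 13 of 16 alternatives, the exceptions being both FPKM fits (adjusted p = 0.14 and 0.084) and the fit without DLD-1 shNAT10 replicate 1 (0.073). With 2 libraries a group, no single library could be examined for standing apart from its group.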

How the results depend on the processing

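The count of members called was 0 for the knockdown in each line, over both lines and for the difference between lines under every alternative except 2. With a replicate block it was 2 in SW480 (IGF2BP3, adjusted p = 0.037, and YTHDF3, 0.040), and leaving out single libraries gave 0 to 2 in SW480 and 0 to 1 over both lines, the upper values without SW480 shNAT10 replicate 2, where 2162 of all genes were called in SW480 and 1157 over both lines. The replicate numbers are not known to pair the libraries, since with 2 numbers the correlation of deviations between groups was −0.0053 to 0.13. The block also moved all genes called in SW480 from 229 to 1654, in DLD-1 from 2 to 65, over both lines from 139 to 832 and for the difference from 1 to 209. Between the lines, 5 to 9 members were called in shControl and 5 to 7 in shNAT10.

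Counts over all genes in SW480 were 41 with no filter, 49 and 37 on FPKM, 29 with each line fitted alone and 18 to 2162 with single libraries left out. In DLD-1 they were 15 by DESeq2, 38 with each line fitted alone, 1 with no filter and on log2(FPKM + 1), and 1 to 29 with single libraries left out. Over both lines they were 212 by DESeq2, 47 with no filter, 31 and 32 on FPKM and 25 to 1157 with single libraries left out, and for the difference 20 by DESeq2, 0 on FPKM and 0 to 346. The study's limits called 1237, 365, 425 and 1070.

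Members near 0 changed sign, and none of these values was called. For FTO the FPKM fits, with pseudocounts of 1 and 0.1, gave −0.18 and −0.21 in SW480, −0.072 and −0.080 in DLD-1, −0.13 and −0.14 over both lines, and −0.11 and −0.13 for the difference. With single libraries left out, METTL3 ranged from −0.084 to 0.14 in SW480, −0.053 to 0.15 in DLD-1, −0.018 to 0.094 over both and −0.13 to 0.089 for the difference. FTO ranged from −0.074 to 0.23, −0.037 to 0.058, −0.033 to 0.12 and −0.081 to 0.22, and between shNAT10 lines from −0.21 to 0.094. ALKBH5 ranged from −0.14 to 0.018 in SW480, −0.10 to 0.037 in DLD-1 and −0.12 to 0.048 for the difference. In DLD-1, METTL14 ranged from −0.23 to 0.012, WTAP from −0.0029 to 0.059, IGF2BP2 from −0.087 to 0.072 and IGF2BP3 from −0.23 to 0.15. WTAP over both lines ranged from −0.021 to 0.016 and IGF2BP3 for the difference from −0.38 to 0.015. The cause of these shifts was not tested.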

Other observations

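Machinery for other RNA marks was counted with the same fit. In SW480, 1 of 12 pseudouridine synthases was called after knockdown, beside 1.68% of all genes. An unadjusted p under 0.05, in either direction, was found for 8 of 12, beside 19.3% of all genes. The median log2 fold change of the 12 was 0.13, but not all of them rose. In SW480 TRUB1 was at 43.6 and 45.8 CPM (shControl) and 35.9 and 40.8 (shNAT10). PUS7L was at 35.5 and 37.1 CPM (shControl) and 28.5 and 31.8 (shNAT10). In DLD-1, 0 of 12 were called by edgeR and by DESeq2, beside 0.0147% and 0.11% of all genes. By edgeR, 2 of 12 had an unadjusted p under 0.05 in DLD-1, beside 5.96% of all genes, and the median was 0.02. Limma on FPKM called none of the 12 in either line or over both lines. Of all genes it called at most 0.36% in SW480, 0.022% in DLD-1 and 0.235% over both lines. RPUSD1, a pseudouridine synthase, gave 43.0 and 42.2 CPM with shControl and 66.3 and 56.3 CPM with shNAT10 in SW480, and it rose by a log2 fold change of 0.52 ± 0.0961 SE (adjusted p = 0.018, edgeR). In DLD-1 it was at 68.4 and 75.5 CPM in shControl and at 94.9 and 83.5 CPM in shNAT10, and the mean over both lines was 0.42 (adjusted p = 0.0078, called in 10 of 16 alternatives and lost without SW480 shControl replicate 2 at 0.059, without replicate 1 of DLD-1 shControl at 0.065 and without replicate 1 of DLD-1 shNAT10 at 0.097). Its SW480 call held in 10 of 17 alternatives (adjusted p from 0.00024 to 0.23) and was lost without SW480 shControl replicate 1 (0.13), SW480 shControl replicate 2 (0.23) or SW480 shNAT10 replicate 1 (0.096). RPUSD2, of the same family, was at 10.6 and 10.3 CPM against 14.5 and 13.1 CPM in SW480 and at 17.1 and 18.5 CPM against 22.6 and 22.9 CPM in DLD-1. Both shNAT10 libraries lay above both controls in each line, and its mean log2 fold change over both lines was 0.37 (adjusted p = 0.030), called in 6 of 16 alternatives (adjusted p from 0.0026 to 0.17) and lost without any single library other than SW480 shNAT10 replicate 2.

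No gene was called in either line among 5 adenosine methyltransferases of rRNA, cap and snRNA, 12 genes of 5-methylcytosine and N1-methyladenosine, 7 cap and 7-methylguanosine methyltransferases and 2 adenosine deaminases (edgeR, DESeq2 and limma on FPKM). The shares of all genes that each method called in each line are given above and are low. At an unadjusted p under 0.05 these held 1, 4, 2 and 1 genes in SW480 and 0 in DLD-1, beside 19.3% and 5.96% of all genes. Between the lines in shControl, 39 of the 55 genes of the 8 further lists were called, 19 higher and 20 lower in SW480, near the 73.8% of all genes called there. Of the 9 tested epithelial markers 0 were called by edgeR after knockdown in either line, with 4 in SW480 and 0 in DLD-1 at an unadjusted p under 0.05, and DESeq2 called 1 in SW480 and 0 in DLD-1.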
